A study of Mus musculus with 27 samples.

Results

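The hypoxia-inducible factor (HIF) pathway was described here through 10 genes, chosen by symbol among the 19392 genes of the deposited table: the HIF alpha subunits Hif1a, Epas1 and Hif3a, the von Hippel-Lindau gene Vhl, the prolyl hydroxylases Egln1, Egln2 and Egln3, and the target genes Bnip3, Adm and Ddit4. All 10 were in the table and all 10 passed the filter on low values. RNA-Seq was done on whole left kidneys of wild-type C57BL/6 mice in the uIRIx model, in which the left renal pedicle is clipped and the right kidney is removed in the same operation. Mice lay on a warm plate, and the left kidney was taken after 24 h of reperfusion. The ischemia 0 min group was the sham, and its mice had lost the right kidney too. The other groups had 16, 18, 20, 22, 24, 26, 28 or 30 min of ischemia, with 3 kidneys from 3 mice in each of the 9 groups. Levels are given in FPKM, fragment counts divided by transcript length and by sequencing depth, so that levels of different genes can be set side by side. In whole-kidney RNA, fewer cells of a type and less RNA per cell cannot be told apart.

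HIF is a transcription factor made of an oxygen-regulated alpha subunit and a constant beta subunit. With oxygen, the EGLN prolyl hydroxylases modify the alpha subunit, and the VHL ubiquitin ligase then marks it for degradation. Without oxygen, the alpha subunit escapes and switches on genes of glycolysis, oxygen supply, mitochondrial turnover and stress. In the kidney, the product of Hif1a is known mainly from tubules and that of Epas1 from endothelium and interstitial cells. This control acts on the alpha proteins, which RNA levels do not measure.

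Fold changes are differences on the scale of log2(FPKM + 1) after quantile normalization, each with its standard error from limma, and p-values were adjusted over all 18188 genes tested. A gene rose or fell where its adjusted p-value was under 0.05, and it was a DEG where the absolute log2 fold change was also above 1. Total FPKM per kidney ranged from 512453 to 554036, and the depth is unknown because no read counts were given. The tissue label fitted the markers, since the proximal tubule gene Slc34a1 lay between 411 and 2416 FPKM and the adrenal gene Cyp11b1 was listed at 0 in 25 of the 27 kidneys. Summed over 7 proximal tubule markers, the level was 3188 to 3499.6 FPKM in the 0 min group and 1953 to 3469.8 FPKM from 16 to 26 min. It was 1178 to 1331 FPKM in the 28 min group and 734 to 826 FPKM in the 30 min group. The sum of 5 injured tubule markers was 15.8 to 90.1 FPKM in the 0 min group, 2144 to 2264 FPKM in the 28 min group and 2518 to 4918 FPKM in the 30 min group. Replicate 3 of the 16 min group stood apart with an injured tubule sum of 70.7 FPKM, beside 729 and 1023 in its group. Replicate 3 of the 30 min group had the highest sums of endothelium (279 FPKM), stroma (285 FPKM), injured tubule (4918 FPKM) and podocyte markers (127 FPKM) of all 27 kidneys. Its sum of loop, distal tubule and collecting duct markers was 2884 FPKM, beside 813 and 837 FPKM in its group. Adipocyte markers were high in 1 kidney each at 18 min (209.6 FPKM, replicate 1), 20 min (60.1 FPKM, replicate 1) and 22 min (156 FPKM, replicate 3).

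**Figure D1:**
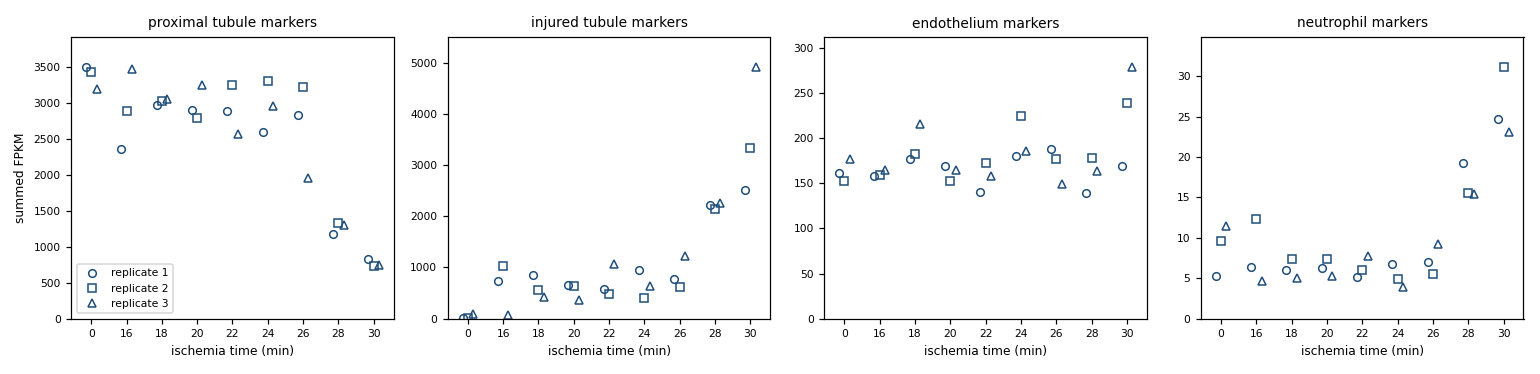
Summed FPKM of 4 marker lists (y axis) against ischemia time in min (x axis), 1 point per kidney with a symbol for the replicate number. The proximal tubule sum was lowest at 28 and 30 min, where the injured tubule and neutrophil sums were highest, and the highest endothelium sum was that of replicate 3 at 30 min.

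Over the 27 kidneys, Bnip3 had the highest median level of the 10 genes (75.2 FPKM), followed by Egln2 (34.6), Hif1a (29.03), Egln1 (21.5) and Epas1 (20.4). Ddit4 (14.6), Vhl (7.03), Egln3 (5.49) and Adm (5.01) were lower, and Hif3a was lowest at 0.25 FPKM. The ranges of neighbours in this order overlapped except at its ends. Bnip3 lay above Egln2 in range, and Hif3a, under 1 FPKM in 26 kidneys, lay below every other gene. Adm varied most among the genes above 1 FPKM, with a highest kidney 9.22 times the lowest, against 4.39 times for Ddit4 and 2.51 times for Bnip3. Egln2 varied least, by 1.30 times.

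**Figure D2:**
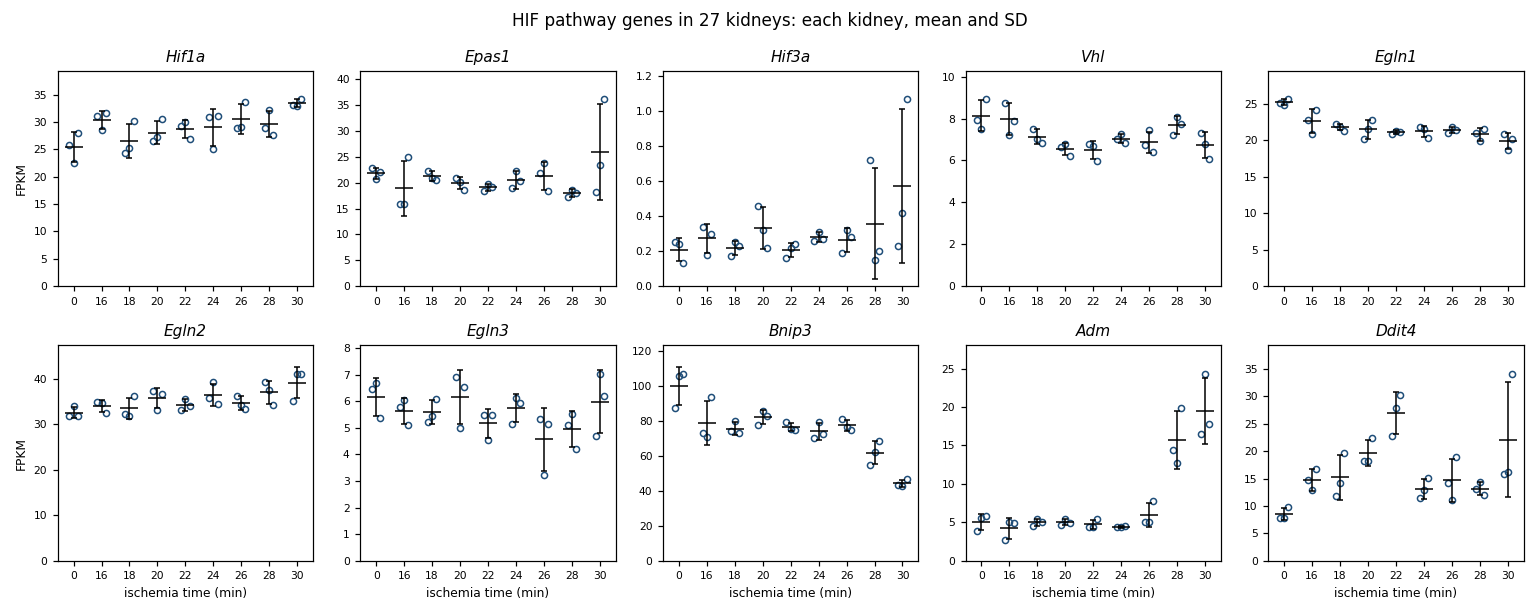
FPKM (y axis, from 0) of the 10 genes against ischemia time in min (x axis), with 1 circle per kidney and the mean and SD of 3 kidneys. Adm was high at 28 and 30 min, Bnip3 was lowest at 30 min, and Ddit4 was highest at 22 min and in 1 kidney at 30 min.

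The number of these genes that differed from the ischemia 0 min group was largest at the longest times, as was that of all genes. At 16 min, 0 of the 10 genes rose and 2 fell, where 9.43% of all tested genes rose and 9.61% fell (19.0% in all). At 18 min, 1 rose and 3 fell, against 12.6% and 15.2% of all genes (27.8% in all). The 20 min group had 1 higher and 3 lower, against 10.7% and 12.1% (22.8% in all). The gene that rose at these times was Ddit4, and the genes that fell were Egln1, Bnip3 and, from 18 min on, Vhl. The 22 min group also had 1 higher and 3 lower, against 13.4% and 15.4% (28.8% in all). At 24 min, 3 fell and 0 rose, where 13.6% of all genes rose and 14.8% fell (28.3% in all). At 26 min, 4 fell and 0 rose, where 14.9% rose and 15.2% fell (30.1% in all). Egln3 joined the genes that fell at 26 and 28 min. The 28 min group had 1 higher and 4 lower, against 24.5% and 23.6% (48.2% in all). At 30 min, 4 rose and 3 fell, against 26.9% and 25.4% of all genes (52.3% in all). The 4 that rose at 30 min were Hif1a, Egln2, Adm and Ddit4, and the 3 that fell were Vhl, Egln1 and Bnip3. The median log2 fold change of the 10 genes ran from -0.23 at 22 min to 0.16 at 30 min, while that of all tested genes lay between -0.011 and 0.001 at every time. The 8 comparisons share the 3 kidneys at 0 min. DEGs among the 10 genes were Ddit4 at 20 min (2.51% of all tested genes were DEGs) and 22 min (3.29%), Adm at 28 min (8.48%), and Adm, Ddit4 and Bnip3 at 30 min (10.7%).

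**Figure D3:**
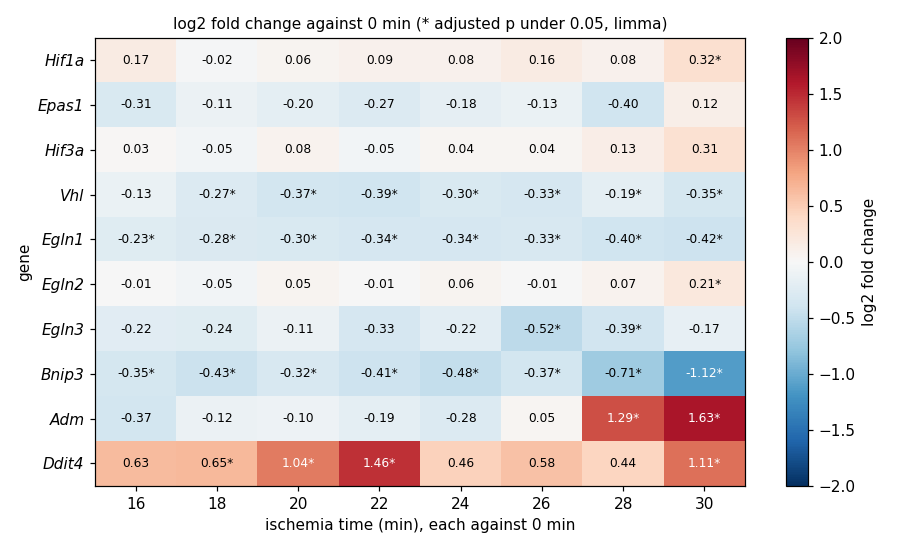
Log2 fold change of each of the 10 genes (rows) at 8 ischemia times in min (columns) against 0 min, printed in each cell and coloured red for higher and blue for lower, with a star for an adjusted p-value under 0.05 in limma. Egln1 and Bnip3 have a star at all 8 times, and Adm at 28 and 30 min.

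Among the alpha subunits, Hif1a rose at 30 min, while Epas1 and Hif3a were called at none of the 8 times. Hif1a, which encodes the best-known oxygen-regulated subunit (chr12:73901375-73947530, plus strand, GRCm38), held 25.7, 22.6 and 28.02 FPKM at 0 min in replicates 1, 2 and 3. It held 33.1, 32.9 and 34.2 FPKM at 30 min. All 3 kidneys at 30 min lay above all 3 at 0 min. The log2 fold change at 30 min was 0.32 ± 0.09 (adjusted p = 0.00773, limma), and it was 0.24 (adjusted p = 0.0569) without replicate 2 of the 0 min group. In the 18 kidneys from 16 to 26 min, Hif1a ran from 24.3 to 33.7 FPKM (median 29.2), and its log2 fold changes against 0 min were -0.02 to 0.17. Without quantile normalization, Hif1a was also called at 26 min (0.26, adjusted p = 0.0456). GENCODE places the antisense gene Gm15283 over the whole of Hif1a, and whether the counting used strand was not given in the sources used here. The protein-coding gene Gm49321 overlaps Hif1a on the same strand over 9878 bases, where strand would not separate the reads. Neither gene was in the deposited table.

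Epas1, which encodes the alpha subunit that controls erythropoietin in interstitial cells (chr17:86753700-86833410, plus strand), held 22.8, 20.7 and 22.1 FPKM at 0 min. The kidneys at 28 min held 17.2, 18.7 and 18.1 FPKM. These lay below all 3 kidneys at 0 min, but the log2 fold change of -0.40 ± 0.19 was not called (adjusted p = 0.0869, 95% interval -0.78 to -0.01). At 30 min the kidneys were far apart, at 18.2, 23.5 and 36.2 FPKM, and the highest was replicate 3, the kidney that stood apart in the endothelium, stroma, injured tubule, podocyte and loop to collecting duct sums. The part of those cells in this value was not tested. The log2 fold change at 30 min was 0.12 ± 0.19 with that kidney and -0.16 (adjusted p = 0.422) without it. At 16 min, replicate 3 held 25.0 FPKM and the other two 15.9 and 15.8, and without replicate 3 Epas1 was called lower (-0.54, adjusted p = 0.0288), against -0.31 (adjusted p = 0.277) with it. In a fit of only the groups compared, Epas1 was called lower at 22 min (adjusted p = 0.0161) and at 28 min (adjusted p = 0.00172), where its 3 kidneys were close together.

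The level of Hif1a was above that of Epas1 in 26 of the 27 kidneys. Their log2 ratio of FPKM was 0.22 ± 0.12 (SD, n = 3) in the 0 min group, 0.52 ± 0.31 in the 26 min group, 0.72 ± 0.09 in the 28 min group and 0.42 ± 0.48 in the 30 min group. The mean ratio was as high in the 16 min group, at 0.72 ± 0.33, and it was 0.59 ± 0.10 in the 22 min group. All 3 ratios at 22 min (0.49 to 0.68) lay above those at 0 min (0.12 to 0.35). All 3 ratios at 28 min were above those at 0 min too, a difference of 0.50 (exact permutation test, two-sided, p = 0.1, the smallest that 3 against 3 can give). The difference was 0.21 for 30 against 0 min (p = 0.6, exact permutation test) and 0.20 for 28 against 26 min (p = 0.4, exact permutation test), and both pairs of groups overlapped. The difference for 30 against 0 min was -0.01 without replicate 1 of the 30 min group.

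Hif3a, whose products include forms that oppose the other subunits (chr7:17031507-17062427, minus strand), was near the limit of detection, with 0.25, 0.24 and 0.13 FPKM at 0 min. Its only value above 1 FPKM was 1.07, in replicate 3 at 30 min, where the other two kidneys held 0.23 and 0.42 FPKM. The log2 fold change at 30 min was 0.31 ± 0.14 (adjusted p = 0.0792), and it was called without quantile normalization (adjusted p = 0.0465), with FPKM rescaled to a constant sum (adjusted p = 0.0466) or without replicate 1 at 30 min (0.47, adjusted p = 0.00874). Without replicate 3 at 30 min it was 0.11 (adjusted p = 0.519).

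Vhl and Egln1, which both act against the alpha subunits, fell by small amounts, Egln1 from 16 min on and Vhl from 18 min on. Vhl encodes the part of the ubiquitin ligase that recognises hydroxylated alpha subunits (chr6:113623959-113631633, plus strand). Its level was 7.93, 7.51 and 8.94 FPKM at 0 min, 6.76, 6.71 and 5.99 FPKM at 22 min and 7.33, 6.77 and 6.09 FPKM at 30 min. The kidneys at 20, 22, 24, 26 and 30 min all lay below those at 0 min, while those at 16, 18 and 28 min overlapped them. Vhl was called lower at 7 of 8 times, all but 16 min, with log2 fold changes from -0.39 at 22 min (SE 0.07, adjusted p = 0.000515) to -0.19 at 28 min (adjusted p = 0.0342). At 30 min it was -0.35 ± 0.07 (adjusted p = 0.000337). Without quantile normalization the calls at 18 min (-0.17, adjusted p = 0.0978), 24 min (-0.18, adjusted p = 0.0680) and 28 min (-0.07, adjusted p = 0.462) were lost, and FPKM rescaled to a constant sum lost these (adjusted p = 0.0605, 0.0693 and 0.379) and 26 min (-0.20, adjusted p = 0.0517). The 28 min call was also lost without replicate 1 (-0.20, adjusted p = 0.0543) or 3 (-0.14, adjusted p = 0.150) at 0 min and without replicate 1 (-0.16, adjusted p = 0.123) or 3 (-0.20, adjusted p = 0.0514) at 28 min, and with a pseudocount of 0.1 FPKM (adjusted p = 0.0519).

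Egln1, the main hydroxylase acting on the alpha subunits in most tissues (chr8:124908587-124949324, minus strand), fell at every ischemia time. It held 25.2, 24.9 and 25.7 FPKM at 0 min, 22.8, 20.9 and 24.2 FPKM at 16 min and 20.8, 18.7 and 20.1 FPKM at 30 min. In the 18 kidneys from 16 to 26 min it ran from 20.2 to 24.2 FPKM (median 21.5), and all 24 kidneys with ischemia lay below all 3 at 0 min. It was called lower at all 8 times, with log2 fold changes from -0.23 at 16 min (adjusted p = 0.00640) to -0.42 at 30 min (adjusted p = 2.65e-06), each with an SE of 0.06. The call at 16 min was lost without replicate 2 at 16 min (-0.17, adjusted p = 0.0568), with FPKM rescaled to a constant sum (-0.15, adjusted p = 0.102) and in a fit of only the groups compared (adjusted p = 0.176). No call at the other 7 times was lost when a kidney was left out.

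Egln2 and Egln3, the other hydroxylases, moved less regularly. Egln2 (chr7:27158658-27166802, minus strand) held 31.8, 34.1 and 31.9 FPKM at 0 min and 35.2, 41.2 and 41.1 FPKM at 30 min. These groups did not overlap, and Egln2 rose at 30 min (log2 fold change 0.21 ± 0.07, adjusted p = 0.0187). This call was lost without replicate 1 (0.20, adjusted p = 0.0556) or 3 (0.19, adjusted p = 0.0688) at 0 min, and without replicate 2 (0.18, adjusted p = 0.0775) or 3 (0.16, adjusted p = 0.1004) at 30 min. The level of Egln1 relative to Egln2 was 0.729 to 0.805 in the 0 min group, 0.579 to 0.643 in the 26 min group and 0.455 to 0.591 in the 30 min group. In each group from 18 min (0.589 to 0.685) on, all ratios lay below those at 0 min, while those at 16 min (0.603 to 0.743) overlapped them. The annotated end of Egln2 shares 11 bases with Cyp2t4, which was listed at 0.25 FPKM or less.

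Egln3, a hydroxylase that is itself induced by HIF in many cells (chr12:54178981-54203860, minus strand), held 6.46, 6.68 and 5.36 FPKM at 0 min, 5.32, 3.21 and 5.16 FPKM at 26 min and 5.11, 5.52 and 4.20 FPKM at 28 min. The 26 min kidneys all lay below those at 0 min and the 28 min kidneys overlapped them. It fell at 26 min (log2 fold change -0.52 ± 0.15, adjusted p = 0.0134) and at 28 min (-0.39 ± 0.15, adjusted p = 0.0396), and was not called at 30 min (-0.17 ± 0.15, adjusted p = 0.370). The 26 min call was lost without replicate 2 at 0 min (-0.46, adjusted p = 0.0608) or at 26 min (-0.33, adjusted p = 0.102), and the 28 min call without replicate 1 (-0.36, adjusted p = 0.104) or 2 (-0.33, adjusted p = 0.134) at 0 min or replicate 1 (-0.42, adjusted p = 0.0584) or 3 (-0.31, adjusted p = 0.153) at 28 min. Both were lost without quantile normalization (adjusted p = 0.0541 and 0.143) and with FPKM rescaled to a constant sum (adjusted p = 0.0601 and 0.116).

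The 3 target genes took 3 different courses: Bnip3 fell throughout, Adm rose at 28 and 30 min, and Ddit4 was highest at 22 min. Bnip3, a receptor on the outer mitochondrial membrane that directs mitochondria to autophagy (chr7:138890836-138909519, minus strand), held 87.5, 106 and 107 FPKM at 0 min. At 16 min it held 73.1, 70.7 and 93.7 FPKM, of which replicate 3, the kidney with the low injured tubule sum, overlapped the 0 min group. From 16 to 26 min the 18 kidneys ran from 70.2 to 93.7 FPKM (median 76.1). The kidneys at 28 min held 55.1, 62.2 and 68.5 FPKM and those at 30 min 43.5, 42.7 and 46.8 FPKM. All 6 lay below the 21 kidneys from 0 to 26 min, the lowest of which held 70.2 FPKM, and the 30 min kidneys lay below those at 28 min.

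Bnip3 was called lower in all 8 comparisons with 0 min. From 16 to 26 min its log2 fold changes lay between -0.48 at 24 min and -0.32 at 20 min, each with an SE of 0.09. At 28 min it was -0.71 (adjusted p = 3.79e-06), and at 30 min -1.12 (adjusted p = 7.03e-09), where the mean was 44.3 ± 2.16 FPKM (SD, n = 3) against 100.2 ± 11.03 FPKM at 0 min, a ratio of 0.442. Leaving out replicate 3 at 30 min gave -1.18. The call at 16 min was lost without replicate 2 (-0.32, adjusted p = 0.0601) or 3 (-0.31, adjusted p = 0.0539) at 0 min and without replicate 1 (-0.29, adjusted p = 0.0720) or 2 (-0.27, adjusted p = 0.0937) at 16 min, and it held without replicate 3 at 16 min (-0.50, adjusted p = 0.000116). At 20 min it was lost without replicate 2 (-0.28, adjusted p = 0.0824) or 3 (-0.27, adjusted p = 0.0814) at 0 min, without replicate 1 at 20 min (-0.28, adjusted p = 0.0869) and with FPKM rescaled to a constant sum (-0.29, adjusted p = 0.0533). Tubule markers fell beside Bnip3: at 30 min 6 of 7 proximal tubule markers fell, and so did 6 of 7 loop, distal tubule and collecting duct markers, whose sum was 2153 to 2389.9 FPKM at 0 min, 803 to 1126 FPKM at 28 min and 813 to 2884 FPKM at 30 min. The part of these cells in its fall was not tested. The annotation places the antisense gene Gm45507 and the pseudogene Gm18258 over part of Bnip3.

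Adm encodes adrenomedullin, a secreted peptide that widens vessels and acts through the calcitonin receptor-like receptor (chr7:110627661-110629820, plus strand). It held 3.89, 5.52 and 5.79 FPKM at 0 min, and from 16 to 26 min the 18 kidneys ran from 2.64 to 7.77 FPKM (median 4.91). The kidneys at 26 min held 5.01, 5 and 7.77 FPKM. At 28 min the values were 14.4, 12.7 and 19.9 FPKM and at 30 min 16.4, 24.4 and 17.7 FPKM. All 6 kidneys at 28 and 30 min lay above the 21 kidneys at shorter times, whose highest value was 7.77 FPKM in replicate 3 at 26 min.

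The log2 fold change of Adm against 0 min was -0.37 after 16 min and 0.05 after 26 min of ischemia. It was 1.29 ± 0.20 at 28 min (adjusted p = 2.18e-05) and 1.63 ± 0.20 at 30 min (adjusted p = 8.93e-07). The mean was 15.7 ± 3.75 FPKM (SD, n = 3) at 28 min and 19.5 ± 4.25 FPKM at 30 min, against 5.07 ± 1.03 FPKM at 0 min, so the mean was 3.09 and 3.85 times that at 0 min. These calls held with each kidney of the comparison left out in turn and under the other settings tried, with log2 fold changes of at least 1.11 at 28 min and 1.46 at 30 min. At the same times the sum of 6 neutrophil markers was 15.5 to 19.3 FPKM at 28 min and 23.1 to 31.1 FPKM at 30 min, against 5.26 to 11.5 FPKM at 0 min. Of these markers, 2 rose at 28 min and 5 at 30 min, and Retnlg was listed at 0 in 5 kidneys and Mmp8 in 2. All 5 injured tubule markers rose at 28 min and 4 at 30 min. The endothelium sum was 139 to 178 FPKM at 28 min and 152 to 176 FPKM at 0 min, and 0 of the 8 endothelium markers rose and 1 fell at 28 min, while 4 rose at 30 min. The part of injured tubules, neutrophils or endothelium in the rise of Adm was not tested. The antisense gene Gm28863 covers the whole of Adm, so its reads cannot be told apart from those of Adm if strand was not used.

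Ddit4 encodes an inhibitor of mTOR signalling that is induced by hypoxia, glucocorticoids and other stresses (chr10:59949669-59951834, minus strand). It held 7.87, 7.78 and 9.78 FPKM at 0 min. The values were 14.6, 12.9 and 16.7 FPKM in the 16 min group, 11.8, 14.2 and 19.6 FPKM in the 18 min group and 18.2, 18.3 and 22.4 FPKM in the 20 min group. At 22 min they were 22.8, 27.9 and 30.3 FPKM, above every kidney at the shorter times. Lower values returned in the 24 min group with 11.4, 12.96 and 15.04 FPKM, the 26 min group with 14.2, 11.01 and 18.9 FPKM and the 28 min group with 13.1, 14.3 and 11.9 FPKM, all of them under the 22 min kidneys. At 30 min they were 15.8, 16.2 and 34.2 FPKM, and the highest of all 27 kidneys was replicate 3 at 30 min, the kidney that stood apart in several marker sums, whose part in this value was not tested. Each of the 24 kidneys with ischemia held more Ddit4 than each of the 3 at 0 min, the lowest being 11.01 FPKM and the highest at 0 min 9.78 FPKM.

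Against 0 min, Ddit4 rose in the 18 min group (0.65 ± 0.24, adjusted p = 0.0481), the 20 min group (1.04 ± 0.24, adjusted p = 0.00419), the 22 min group (1.46 ± 0.24, adjusted p = 0.000206) and the 30 min group (1.11 ± 0.24, adjusted p = 0.000583). It was not called in the 16 min (0.63, adjusted p = 0.0727), 24 min (0.46, adjusted p = 0.163), 26 min (0.58, adjusted p = 0.0743) or 28 min group (0.44, adjusted p = 0.144). Without quantile normalization it was called at 16, 26 and 28 min too (adjusted p = 0.0301, 0.0258 and 0.0460), and without replicate 2 at 26 min it was called there (0.76, adjusted p = 0.0384). The 18 min call was lost without replicate 1, 2 or 3 at 0 min (adjusted p = 0.119, 0.127 and 0.0551), without the filter on low values (adjusted p = 0.0551) and without replicate 2 or 3 at 18 min (adjusted p = 0.0810 and 0.211). At 22 min the mean level was 3.18 times that at 0 min, and the log2 fold change stayed between 1.38 and 1.57 with each kidney left out. At 30 min it was 0.74 (adjusted p = 0.00423) without replicate 3, still called but no longer a DEG. At 20 min the fold change was under 1 without replicate 1 or 2 at 0 min or replicate 3 at 20 min, and it was lowest at 0.94.

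The peak of Ddit4 at 22 min was compared with its neighbours after its values had been seen. From 22 to 24 min the log2 fold change was -0.997 ± 0.24, and the groups did not overlap, but it was not called over all genes (adjusted p = 1, unadjusted p = 0.000490). From 20 to 22 min it was 0.42 ± 0.24 (unadjusted p = 0.0919). In both comparisons limma called 0% of the 18188 genes, and at an unadjusted p-value under 0.05 Ddit4 was the 1 gene of the 10 from 22 to 24 min, and there were 0 from 20 to 22 min. In the 22 min group, replicate 3, the kidney with the high adipocyte sum, held the most Ddit4, and the other two kidneys still lay above all those at 24 min.

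Because the 3 target genes were DEGs with different courses, the bases before their RefSeq start sites were set side by side (GRCm38.p6, read 5′ to 3′ on the gene's strand). Each run ends at the RefSeq start or where the GENCODE gene begins, whichever comes first. Capitals mark the letters ACGTG or GCGTG, the core of the known HIF binding motif, on either strand, so that CACGT and CACGC are matches on the opposite strand. The windows are chr7:110627407-110627656, plus strand for Adm, chr7:138909520-138909756, minus strand for Bnip3 and chr10:59951835-59952020, minus strand for Ddit4.
Adm: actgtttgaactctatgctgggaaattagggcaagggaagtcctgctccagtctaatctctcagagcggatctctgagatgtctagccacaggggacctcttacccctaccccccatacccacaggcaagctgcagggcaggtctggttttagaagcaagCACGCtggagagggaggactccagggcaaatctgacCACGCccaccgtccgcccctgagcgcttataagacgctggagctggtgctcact
Bnip3: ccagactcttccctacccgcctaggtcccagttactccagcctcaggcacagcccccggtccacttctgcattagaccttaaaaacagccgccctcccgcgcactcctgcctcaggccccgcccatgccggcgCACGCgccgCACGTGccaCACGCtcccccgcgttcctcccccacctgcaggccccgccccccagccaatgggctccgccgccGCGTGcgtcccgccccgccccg
Ddit4: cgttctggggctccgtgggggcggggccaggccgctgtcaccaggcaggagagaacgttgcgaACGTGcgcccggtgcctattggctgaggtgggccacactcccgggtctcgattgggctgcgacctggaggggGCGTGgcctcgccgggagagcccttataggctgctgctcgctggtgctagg

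Adm held 2 matches to GCGTG, both on the opposite strand, and none to ACGTG. Bnip3 held 3 matches to GCGTG and a CACGTG, which reads as ACGTG on both strands and is also the core of the motif known for MYC and other factors. Ddit4 held 1 ACGTG and 1 GCGTG. Over the 250 bases before each start, ACGTG or GCGTG was found in 9 of the 10 RefSeq windows, which belong to 9 genes, all but that of Vhl, against 38.6% of all 32851 promoters. Counted by gene, 8 of the 9 had a match. The 10 windows held 48.0% to 86.0% G and C, and both motifs contain CG. The share over all promoters was not matched for this content, so it cannot show an excess of matches. The window of Hif1a and 1 of the 2 windows of Egln2 lie inside the GENCODE gene and not before it. The promoter of Epas1 was not analysed here. ACGTG alone was in 16.6% of all promoters, GCGTG in 28.2% and CACGTG in 6.02%. A match is a description of the sequence, and binding was not measured.

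Comparisons between ischemia times leave out the means of the 0 min group, and the question was at which step the pathway genes moved. The 0 min kidneys still entered the normalization and the shared estimate of the spread. From 16 to 26 min limma called 0 of the 10 genes, and 0% of all 18188 tested genes. At an unadjusted p-value under 0.05 there was 1, Vhl (-0.20 ± 0.07, unadjusted p = 0.0104, adjusted p = 0.432). A slope over the 6 group means from 16 to 26 min also called 0 of the 10 genes, where 0.00550% of all genes rose and 0.00550% fell with time (0.0110% in all), and again Vhl was the 1 gene with an unadjusted p-value under 0.05 (-0.02 per min, unadjusted p = 0.0160).

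From 26 to 28 min, 1 of the 10 genes rose and 1 fell, against 10.8% and 8.52% of all genes (19.3% in all). Adm rose (1.24 ± 0.20, adjusted p = 0.000289), and was the 1 DEG of the 10, where 1.50% of all genes were DEGs. Bnip3 fell (-0.35 ± 0.09, adjusted p = 0.0144), and this call was lost without replicate 1 at 28 min (-0.27, adjusted p = 0.0842). From 28 to 30 min, 0 of the 10 genes rose and 1 fell, against 6.47% and 6.77% of all genes (13.2% in all). Bnip3 fell again (-0.41 ± 0.09, adjusted p = 0.00816), a call lost without replicate 3 at 28 min (-0.35, adjusted p = 0.0518) and in a fit of only these groups (adjusted p = 0.101). Adm did not differ beyond its spread in that step (0.34 ± 0.20, 95% interval -0.07 to 0.76). Without replicate 1 at 30 min, Epas1 (0.76, adjusted p = 0.00536), Egln2 (0.22, adjusted p = 0.0336) and Ddit4 (0.87, adjusted p = 0.0238) were called higher as well, and Ddit4 also without replicate 2 at 30 min (0.84, adjusted p = 0.0473).

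The partners of these genes moved in different directions at 30 min. Of 10 partners and regulators of HIF, 3 rose and 1 fell, where 26.9% of all genes rose and 25.4% fell, and their median log2 fold change was -0.001 against 0.001 for all genes. The 3 that rose encode subunits of the VHL ubiquitin ligase, which are shared with other ligases. Elob, an elongin that binds VHL, held 236, 219 and 238 FPKM at 0 min and 357, 342 and 337 FPKM at 30 min (0.64 ± 0.11, adjusted p = 5.81e-05). Its level was already high at shorter times, with 382, 394 and 247 FPKM at 16 min and 362, 421 and 365 FPKM at 24 min. The levels of Rbx1 and Eloc at 24 min still overlapped those at 0 min. Rbx1, the ring subunit, rose by 0.30 on the log2 scale (adjusted p = 9.50e-05) and Eloc, the other elongin, by 0.27 (adjusted p = 0.00256). Of 2 genes named after their values were seen, the scaffold Cul2 was not called (-0.10, adjusted p = 0.326), nor was the beta subunit Arnt (-0.03, adjusted p = 0.744). Cited2, which competes with HIF for its coactivators, fell from 69.7, 56.2 and 41.5 FPKM at 0 min to 26.3, 29.7 and 24.6 FPKM at 30 min (-1.06 ± 0.15, adjusted p = 7.42e-06) and was a DEG.

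Of 19 hypoxia-inducible genes of metabolism, 8 or 9 rose and 1 fell at each time from 16 to 26 min, where 9.43% to 14.9% of all genes rose and 9.61% to 15.4% fell. At 28 min, 10 rose and 3 fell (24.5% and 23.6% of all genes), and at 30 min 11 rose and 3 fell (26.9% and 25.4%), with a median log2 fold change of 0.34 against 0.001 for all genes. The 4 genes named next changed most at 30 min. Plin2, a coat protein of lipid droplets, held 42.7, 57.5 and 51.7 FPKM at 0 min and 359, 653 and 264 FPKM at 30 min (2.91 ± 0.24, adjusted p = 4.59e-09). Angptl4, an inhibitor of lipoprotein lipase, held 15.4, 38.2 and 23.2 FPKM at 0 min and 66.5, 93.8 and 66.9 FPKM at 30 min (1.57 ± 0.32, adjusted p = 0.000287). Hk2, which starts glycolysis, held 0.10, 0.09 and 0.31 FPKM at 0 min and 1.87, 1.57 and 1.64 FPKM at 30 min (1.20 ± 0.22, adjusted p = 0.000137), and Gbe1, the glycogen branching enzyme, rose by 1.02 ± 0.10 on the log2 scale (adjusted p = 8.87e-08). Each of the 4 had all 3 kidneys at 30 min above those at 0 min. Plin2 and Angptl4 are lipid genes with other known regulators. Bnip3l, the relative of Bnip3 with the same role in mitochondria, was among the 3 that fell (-0.64 ± 0.05, adjusted p = 6.67e-09). It was named for that kinship after its value was seen.

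Of 18 other hypoxia-inducible genes, 3 or 4 rose and 3 or 4 fell at each time from 16 to 26 min, 5 rose and 8 fell at 28 min, and 5 rose and 7 fell at 30 min, against the same shares of all genes. Their median at 30 min was -0.14. Hmox1, which breaks down heme, held 18.8, 29.98 and 36.1 FPKM at 0 min and 256, 239 and 203 FPKM at 30 min (3.07 ± 0.29, adjusted p = 3.31e-08). It was higher still at 28 min, with 289, 258 and 344 FPKM. In the opposite direction, Car9, a carbonic anhydrase known as a marker of hypoxia, fell from 12.1, 8.13 and 7.22 FPKM to 2.23, 2.44 and 1.42 FPKM (-1.81 ± 0.23, adjusted p = 1.43e-06). Ndrg1, a stress response gene with high levels in kidney, fell to 566, 532 and 419 FPKM from 1319.7, 1301 and 1218 FPKM (-1.43 ± 0.18, adjusted p = 1.48e-06). Its level was already low at 16 min, with 444, 624 and 697 FPKM. No 30 min kidney overlapped the 0 min kidneys in these 3 genes.

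**Figure D4:**
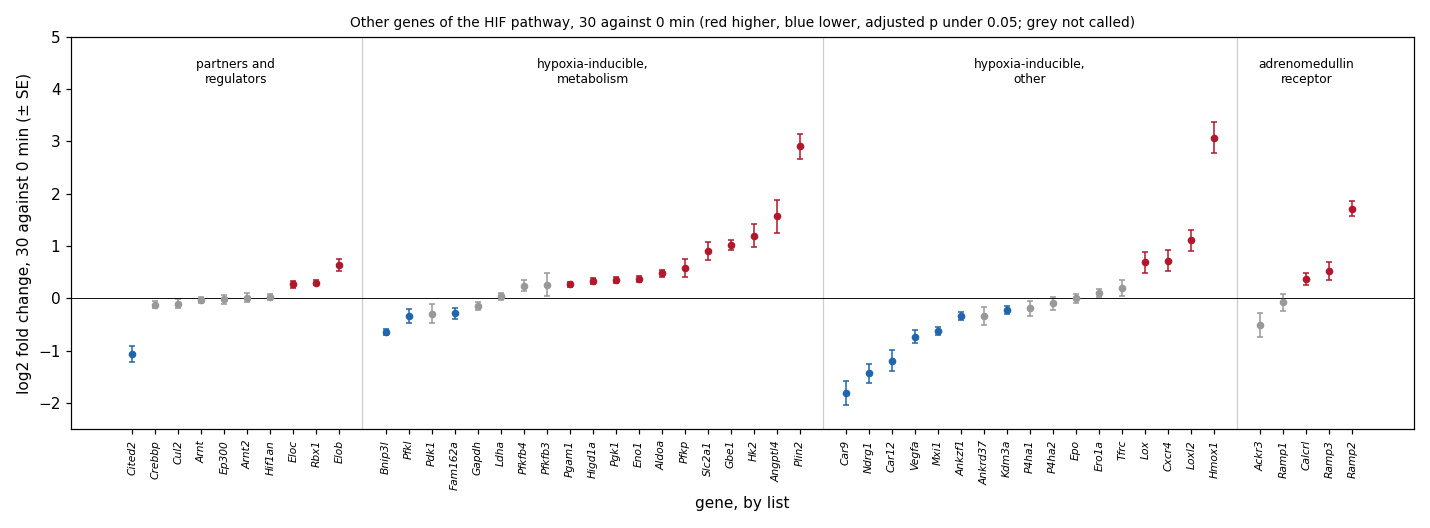
Log2 fold change at 30 against 0 min (y axis, with bars of 1 SE) of other genes of the HIF pathway (x axis), sorted within 4 lists, with red for genes that rose, blue for genes that fell and grey for genes not called. The hypoxia-inducible lists hold changes in both directions, with -1.81 for Car9 and 3.07 for Hmox1.

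The receptor genes of adrenomedullin were looked at beside Adm. Of the 5 genes, 3 rose and 0 fell at 30 min, by limma, against 26.9% and 25.4% of all genes. Ramp2, the accessory protein that makes the receptor-like receptor bind adrenomedullin, held 14.4, 13.2 and 14.02 FPKM in the sham kidneys, 22.9, 26.9 and 18.4 FPKM in the 16 min group and 26.03, 28.9 and 23.3 FPKM at 26 min, then 45.2, 37.6 and 35.7 FPKM in the 28 min group and 53.9, 60.3 and 39.02 FPKM in the 30 min group. All 24 kidneys with ischemia lay above those at 0 min, and its log2 fold change at 30 min was 1.72 ± 0.15 (adjusted p = 7.84e-09). Ramp3, another such protein, rose by 0.53 ± 0.17 (adjusted p = 0.0156), with 7.90, 6.08 and 7.75 FPKM at 0 min and 9.48, 9.96 and 16.8 FPKM at 30 min, and Calcrl, the receptor itself, by 0.37 ± 0.12 (adjusted p = 0.0115). Ramp3 was highest in replicate 3 at 30 min, the kidney that stood apart in several marker sums, and the part of those cells in these values was not tested.

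For the 3 DEGs of the pathway, the genes with the most similar course were listed by the mean absolute difference in log2 fold change over the 8 ischemia times, among 12337 genes with a mean of at least 1 FPKM. This is a description over 8 comparisons that share the 0 min kidneys. Among the genes closest to Bnip3 were Hibch, an enzyme of valine breakdown (mean difference 0.051), and Trpc1, a cation channel (0.053). Hibch, for example, held 32.1, 30.7 and 33.2 FPKM at 0 min and 16.4, 16.6 and 12.7 FPKM at 30 min. Adm was closest to Hpgds, a prostaglandin D synthase (0.164), Chac1, which degrades glutathione (0.180), and Mlkl, the effector of necroptosis (0.187). Hpgds held 0.64, 0.73 and 0.59 FPKM at 26 min, 1.83, 1.49 and 1.70 FPKM at 28 min and 4.24, 3.31 and 3.27 FPKM at 30 min. Its mean at 0 min was 0.50 FPKM, a level at which the log2(FPKM + 1) scale understates changes. In FPKM, its mean at 30 min was 7.21 times that at 0 min, against 3.85 times for Adm. Ddit4 was closest to Noct, a phosphatase of the circadian system (0.187), Ttc39a (0.217) and Sncg, a synuclein (0.219). At 22 min the log2 fold change was 1.46 for Ddit4 and 1.24 for Noct. On this scale it was 0.68 for Ttc39a and 0.58 for Sncg, but the level of Ttc39a was low. In FPKM, the mean of Ttc39a was 0.49 at 0 min and 1.60 at 22 min. That was 3.29 times, against 3.18 times for Ddit4. Neither gene peaked at 22 min: the mean of Ttc39a was 1.76 FPKM at 18 min. That of Sncg was 9.41 FPKM at 18 min and 8.44 FPKM at 22 min. Noct held 4.40, 4.76 and 6.67 FPKM at 0 min, 12.2, 15.2 and 17.4 FPKM at 22 min and 7.98, 8.84 and 7.61 FPKM at 24 min. It was picked for its likeness to Ddit4 over these same times, so its fall from 22 to 24 min is no separate evidence of a peak. The highest Noct level was in a kidney at 26 min (7.93, 19.3 and 10.5 FPKM in that group). These matches to Bnip3 were closer than those to Adm and Ddit4. The SE of the fold changes was also smaller for Bnip3 (0.09) than for Adm (0.20) and Ddit4 (0.24), so these distances cannot be compared between the genes.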

How the data were processed

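RNA-Seq of whole left kidneys from 27 mice was sequenced on DNBSEQ-G400. The authors mapped the reads to GRCm38.p6 and deposited 1 table of FPKM values, which the methods call RPKM, with 19392 genes. The submitters' processing notes name Bowtie2, RSEM and DESeq2, and the annotation, strand setting and read numbers were not given in the sources used here. No read counts were analysed here, so no count test was run.

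Genes above 0 FPKM in at least 3 kidneys (18188) were kept, log2(FPKM + 1) was quantile normalized, and limma 3.58.1 (R 4.3.3) fitted 1 mean for each of the 9 ischemia times, with Benjamini-Hochberg adjustment over all genes kept. A fold change on this scale understates the change of genes near 1 FPKM. The ratio of Hif1a to Epas1 was compared with exact permutation tests. The code was tested on simulated data. Replicate numbers only name the samples.

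The genes and lists were chosen with earlier results of these data known. Other pathway genes were named by a rule, namely the up to 4 genes of each list called at 30 against 0 min with the largest absolute fold change, and 2 genes that the rules for named genes select are not reported here. Ero1l was matched through its synonym Ero1a. Loci are from the GENCODE annotation of GRCm38 and promoters from RefSeq GRCm38.p6, with 9 of the 10 genes matched.

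Alternatives were another pseudocount (0.1 FPKM), a stricter filter (at least 1 FPKM in at least 3 kidneys), no filter, log2(FPKM + 1) without quantile normalization, rescaling of each kidney's FPKM to the same sum, limma with a mean-variance trend, a replicate block, a fit of only the groups compared, and leaving out each kidney in turn. The comparisons of 22 with 20 min and of 24 with 22 min were added after the values of Ddit4 had been seen.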

Additional observations from a re-analysis of the deposited data

How the results depend on the processing

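Over the alternatives run, 1989 log2 fold changes and slopes of the 10 genes kept their side of the threshold, 53 lost the call and 24 gained it. Most of the 1989 were not called to begin with and so could not lose a call. The share of calls that were lost is therefore larger than these counts show. No called value changed sign, while values not called did in some cases, as Epas1 at 30 min without replicate 3 (-0.16 in place of 0.12). The number of the 10 genes called fell to 0 at 16 against 0 min and 0 at 30 against 28 min in a fit of only the groups compared, which leaves fewer kidneys to estimate the spread. That fit also lost, against 0 min, the calls of Bnip3 at 16 and 20 min (adjusted p = 0.249 and 0.0526), Ddit4 at 18 min (0.0662), Egln3 at 26 min (0.110) and Egln2 at 30 min (0.110). It was 3 at 28 against 0 min with FPKM rescaled to a constant sum. Leaving out 1 kidney at a time gave 0 to 3 genes called at 16 against 0 min, 3 to 5 at 28 against 0 min, 1 to 2 at 28 against 26 min and 0 to 4 at 30 against 28 min. The difference in the log2 ratio of Hif1a to Epas1 at 30 against 0 min then ran from -0.0142 to 0.461. Adm at 28 min (1.11 to 1.51) and 30 min (1.46 to 1.84), Bnip3 at 30 min (-1.20 to -1.08) and Ddit4 at 22 min (1.38 to 1.60) stayed called under every alternative run for them.

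With the replicate number as a replicate block, 2 of the 10 genes were called at 30 against 28 min in place of 1, Ddit4 was also called at 16 and 26 min (adjusted p = 0.0186 and 0.0177) and 28 min (adjusted p = 0.0465), and Egln3 was lost at 28 min (adjusted p = 0.0518). The numbers did not pair the samples: the correlation of deviations between kidneys of the same number had a median of -0.0087 over 108 pairs, and 8 of 27 kidneys correlated best with their own number.

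With a pseudocount of 0.1 FPKM, DEGs among all genes numbered 926 in place of 457 at 20 min, 1154 in place of 599 at 22 min, 2626 in place of 1542 at 28 min, 3276 in place of 1950 at 30 min and 515 in place of 272 at 28 against 26 min. The median log2 fold change of all genes was at most 0.071 under another scaling. With 3 kidneys a group and no read counts, small differences and levels near 0 FPKM, as of Hif3a, were not resolved.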
